A study of Bos taurus with 31 samples.

Results

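The proteasome subunit genes are the genes whose symbol starts with PSMA, PSMB, PSMC, PSMD, PSME, PSMF or PSMG and a digit, without PSMB8 and PSMB9, and 47 of the 24616 genes in the deposited count table met this definition. They were examined in liver biopsies of 31 lactating German Holstein cows taken at week 16 of a feeding trial. Cows received a total mixed ration with glyphosate-contaminated peas, wheat grain and straw (GLY groups) or a control ration (CON groups), each with a high (HC, 60% of dry matter) or a low (LC, 30%) concentrate feed proportion. The groups were CONHC (n = 8), CONLC (n = 8), GLYHC (n = 8) and GLYLC (n = 7). Each library came from a different cow, and all groups had been fed their ration for 16 weeks. The design asks whether liver transcripts of these genes differ with concentrate feed proportion, with glyphosate residues and with the combination of both.

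The proteasome degrades proteins that carry a ubiquitin tag. Its 20S core is a barrel of alpha rings, which gate the entrance, and beta rings, which hold the proteolytic sites. The 19S regulatory particle caps the barrel with a base of ATPases that unfold the substrate and a lid that binds and removes ubiquitin. Alternative activators such as the interferon-induced PSME1 and PSME2 can take the place of the 19S particle, and dedicated chaperones assemble the complex. In hepatocytes the proteasome turns over short-lived enzymes and damaged proteins.

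By role, 8 genes encoded 20S alpha subunits, 7 the 20S beta subunits of the standard particle, 2 beta subunits of special tissues or states (PSMB10 and PSMB11), 6 the 19S ATPases, 3 other 19S base subunits, 8 lid subunits, 7 assembly chaperones and 5 activators or inhibitors. PSMC3IP, a partner of the meiotic recombination machinery, met the definition by its symbol alone and encodes no subunit. Of the 47 genes, 2 were not tested because they had under 20 reads summed over all cows. PSMA8, the alpha subunit of the testis, had 0 reads among 645306753 reads of all cows, and a count of 0 allows a level of up to 0.00465 CPM (reads of the gene scaled to a fixed total). PSMB11, the beta subunit of the thymus cortex, had 1 read in 1 cow. The other 45 genes were tested. The gene with the lowest level among them was PSMC3IP, which lay between 6.55 and 43.5 (median 16.9) normalized read counts, and the next lowest was PSMD10, which lay between 69.9 and 154 (median 102).

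The libraries held 11675775 to 36675542 reads on genes, of which the 47 genes took 0.194% to 0.317%. The median share was 0.243% in CONHC, 0.269% in CONLC, 0.242% in GLYHC and 0.254% in GLYLC. All 8 hepatocyte marker genes were detected, with median levels between 261 and 106927 CPM. Cow 912 of GLYLC stood apart through intestinal marker genes and cow 103 of CONLC through connective tissue marker genes. Values without these cows are given beside the counts of called genes and the connective tissue markers, but not for the intestinal markers. In these bulk samples, fewer cells of a type and less RNA per cell cannot be told apart.

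Transcripts of 5 proteasome genes, all of the 19S particle, were lower in the liver of cows fed the high concentrate proportion, and most other subunit genes had smaller differences in the same direction. Over all 31 cows, with treatment as a covariate, 38 of the 45 tested genes had a lower mean in HC than in LC cows (54% of all tested genes did), with a median log2 fold change of -0.14 against -0.01 over all 15916 tested genes. Calls required both an unadjusted p under 0.05 in edgeR's quasi-likelihood test and a Benjamini-Hochberg adjusted p under 0.1 over all tested genes. Of the 45 genes, 5 were called, all lower in HC, while 0.773% of all tested genes were called lower. At an unadjusted p under 0.05, 24 of the 45 genes were lower and 0 were higher, beside 7.81% of all tested genes lower and 5.88% higher. All 24 encoded subunits of the 20S core or the 19S particle, which together had 31 tested genes, and all 31 had a negative log2 fold change with a median of -0.16. Of the 14 tested genes outside these particles, 7 were lower, 7 were higher and none reached an unadjusted p under 0.05. The genes were measured in the same cows and varied together, so these counts of genes are not independent observations. DESeq2 on all cows called 14 of the 45 genes lower in the same comparison, beside 1.28% of all tested genes. With a score of connective tissue markers or of macrophage markers as a covariate, settings chosen after the data were seen, edgeR called 0 of the 45 genes, at median log2 fold changes of -0.14 and -0.11. Without cow 103 edgeR called 4 genes at a median log2 fold change of -0.15, and without cow 912 it called 3 at -0.14.

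**Figure D1:**
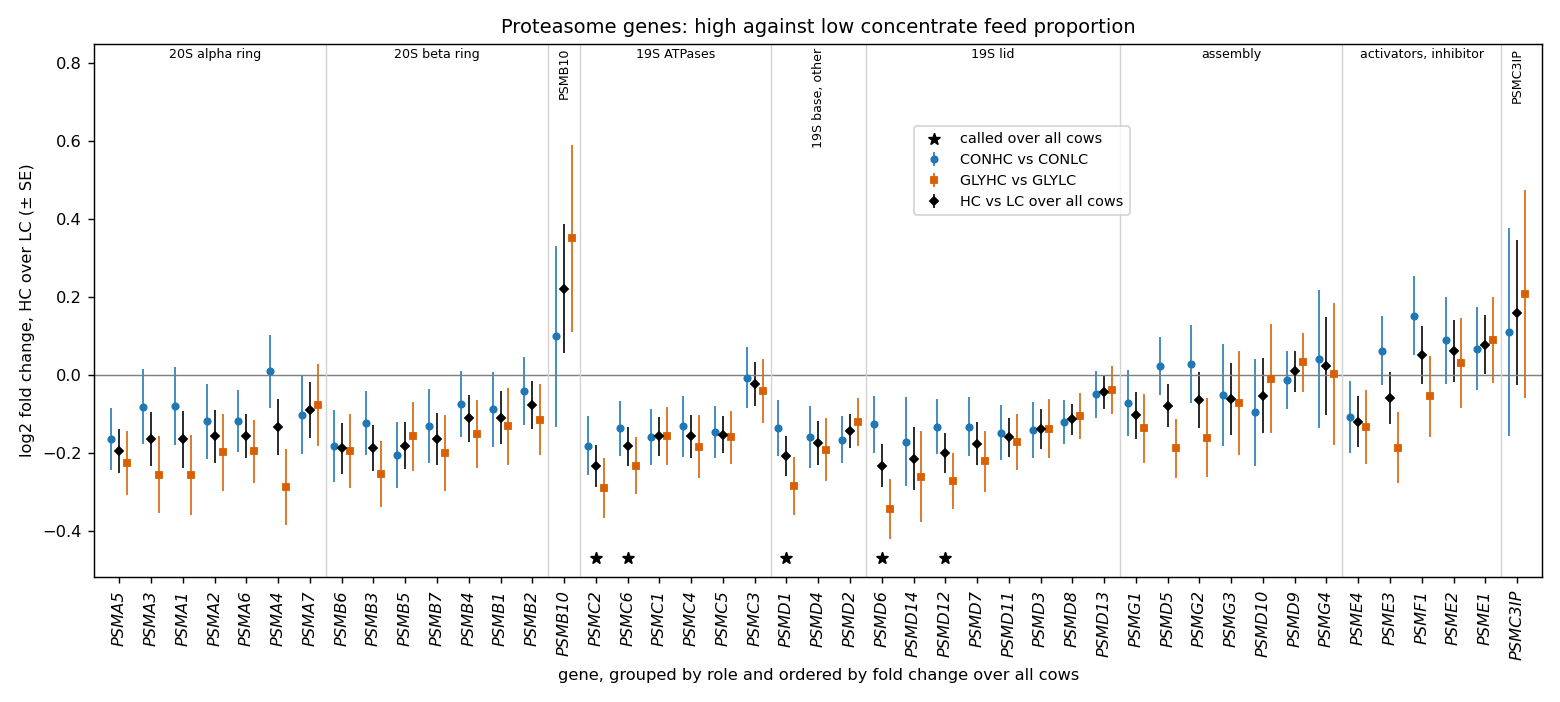
Log2 fold change (HC over LC, y axis) of the 45 tested proteasome genes grouped by role (x axis) in CON cows (blue circles), GLY cows (orange squares) and all cows (black diamonds), with standard errors as bars and stars on the 5 genes called over all cows. The points of the 20S and 19S genes lie at or below 0 with the exception of PSMA4 in CON cows, whereas those of assembly genes and activators lie on both sides.

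All 5 called genes encode subunits of the 19S particle. PSMC2 (ENSBTAG00000046712) encodes an ATPase of the base that helps to unfold substrates. It lay between 1276 and 1648 (median 1454) normalized read counts in CONHC, between 1402 and 1869 (median 1661) in CONLC, between 1197 and 1706 (median 1467) in GLYHC and between 1528 and 1986 (median 1742) in GLYLC. HC cows were lower in both treatments, although the ranges overlapped, and 15 of 16 HC cows lay below the median of the LC cows. The log2 fold change of HC over LC was -0.23 ± 0.054 (SE) (adjusted p = 0.0442).

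PSMD6 (ENSBTAG00000015112) encodes a lid subunit that helps to hold the lid together. It lay between 427 and 582 (median 516) normalized read counts in CONHC, between 534 and 593 (median 565) in CONLC, between 438 and 553 (median 507) in GLYHC and between 534 and 843 (median 597) in GLYLC. The highest GLYLC value came from cow 912, and 15 of 16 HC cows lay below the median of the LC cows. The log2 fold change over all cows was -0.23 ± 0.056 (adjusted p = 0.0548), and without cow 912 it was -0.19 (adjusted p = 0.0568).

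PSMD1 (ENSBTAG00000005119), the largest scaffold subunit of the base, lay between 1864 and 2229.6 (median 1976) normalized read counts in CONHC, between 1852 and 2336 (median 2248) in CONLC, between 1609.8 and 2138 (median 1918) in GLYHC and between 1982 and 2655 (median 2288) in GLYLC. The lowest CONLC value was that of cow 169, below every CONHC cow, and 16 of 16 HC cows lay below the median of the LC cows. The log2 fold change was -0.21 ± 0.052 (adjusted p = 0.0657), and the call was lost without GLYHC cow 32, 127 or 159. PSMD12 (ENSBTAG00000002423), another lid subunit, lay between 648 and 829 (median 759) normalized read counts in CONHC, between 709 and 877 (median 837) in CONLC, between 556 and 817 (median 695) in GLYHC and between 749 and 938 (median 829.6) in GLYLC. Cow 169 was again the lowest CONLC cow, and 16 of 16 HC cows lay below the median of the LC cows. Its log2 fold change was -0.20 ± 0.051 (adjusted p = 0.0683), and the call was lost without GLYHC cow 32, 152 or 159 or GLYLC cow 912.

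PSMC6 (ENSBTAG00000015732), a further ATPase of the base, lay between 822 and 1076 (median 1002) normalized read counts in CONHC, between 994 and 1177 (median 1058) in CONLC, between 835 and 1050.4 (median 985) in GLYHC and between 971 and 1447 (median 1149) in GLYLC. GLYLC held the widest range, and 16 of 16 HC cows lay below the median of the LC cows. The log2 fold change was -0.18 ± 0.051 (adjusted p = 0.0930), and this call was lost for 21 of the 31 cows when each was left out in turn, with adjusted p-values between 0.059 and 0.145. The number of called genes moved by over 1.5 times without single cows. It was 2 without GLYHC cow 32 or 159, 3 without GLYHC cow 127 or 152 or GLYLC cow 912, 8 without CONHC cow 123, 9 without GLYLC cow 102, 10 without GLYHC cow 37, 11 without CONLC cow 169 and 12 without GLYLC cow 544.

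**Figure D2:**
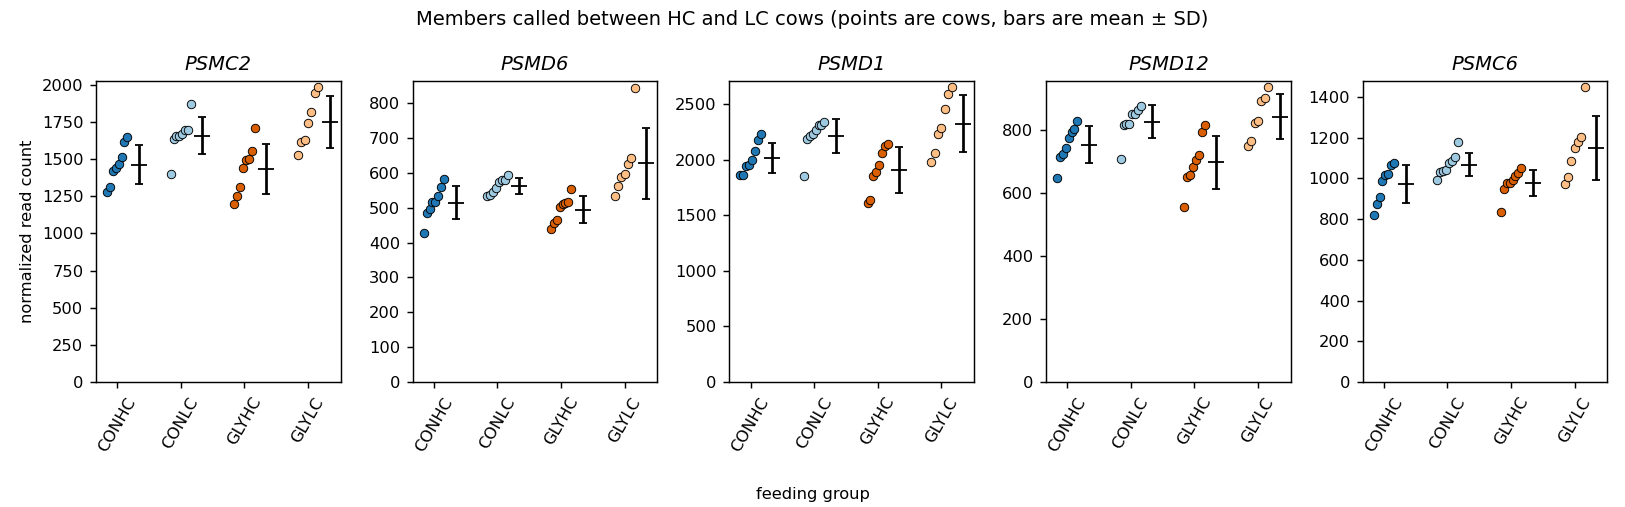
Normalized read counts (y axis, starting at 0) of the 5 genes called between HC and LC cows in each feeding group (x axis), with 1 point per cow and bars for mean ± SD. HC cows lie lower than LC cows in both treatments with overlapping ranges, and the highest PSMD6 value, 843 in GLYLC, belongs to cow 912.

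Within the CON cows the same comparison rests on 8 HC and 8 LC cows. None of the 45 genes was called in edgeR's quasi-likelihood test (0% of all tested genes were called), with 8 genes lower at an unadjusted p under 0.05 beside 3.25% of all tested genes. DESeq2 called 0 of them on all cows (0.17% of all tested genes) and 1, PSMD2, lower on only these 2 groups (0.22% of all tested genes lower). No gene was higher at this threshold, beside 2.71% of all tested genes. Of the 45 genes, 35 had a lower mean in CONHC, as had 53.6% of all tested genes, with a median log2 fold change of -0.11 against -0.01 over all tested genes. The smallest p belonged to PSMD2, a base subunit that docks ubiquitin receptors and shuttle proteins. It lay between 2069.6 and 2345 (median 2230.1) normalized read counts in CONHC and between 2281 and 2865 (median 2479) in CONLC, so that 7 of 8 CONLC cows lay above every CONHC cow. Its log2 fold change was -0.17 ± 0.061 (unadjusted p = 0.00999, adjusted p = 0.686 in edgeR's test). PSMC2 followed at -0.18 ± 0.075 (adjusted p = 0.763), and PSMB5, the beta subunit with chymotrypsin-like activity, had -0.21 ± 0.086 (adjusted p = 0.775).

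Within the GLY cows PSMD6 was the only gene called, while 0.163% of all tested genes were called lower. All GLYHC cows lay below the GLYLC median of PSMD6 and 6 of 7 GLYLC cows lay above every GLYHC cow, with a log2 fold change of -0.34 ± 0.076 (adjusted p = 0.0848). Without cow 912 the log2 fold change was -0.26 and the call was lost (adjusted p = 0.280). It was also lost without CONHC cow 7 or 170, CONLC cow 60 or 103, or GLYHC cow 32, 117, 127, 131, 152, 154 or 159, over which the adjusted p reached no more than 0.280. The number of called genes was 4 without GLYHC cow 37 or GLYLC cow 147 and 3 without GLYLC cow 544. At an unadjusted p under 0.05, 22 of the 45 genes were lower and 0 were higher, beside 7.45% of all tested genes lower and 5.06% higher. Of the 45 genes, 39 had a lower mean in GLYHC, as had 51.4% of all tested genes. The median log2 fold change was -0.16 against -0.01 over all tested genes. After PSMD6, the smallest p-values belonged to PSMD1 with -0.29 ± 0.074 (adjusted p = 0.109) and PSMD12 with -0.27 ± 0.072 (adjusted p = 0.115). DESeq2 on all cows called 4 genes lower, beside 0.446% of all tested genes, and edgeR on only these 2 groups called 0 (0% of all tested genes lower) with a smallest adjusted p of 0.352.

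The CON and the GLY comparisons share no cow in their fold changes. Their p-values come from the same fit, with a spread estimated over all 31 cows, and are not independent. Of the 31 subunit genes of the 20S and 19S particles, 30 were lower in HC in both, compared with 31.5% of all tested genes, and PSMA4 was the exception. Of all 45 genes, 34 were lower in both, 5 were higher in both and 6 changed sign. PSMC1, PSMC2, PSMC5, PSMA5 and PSMD11 reached an unadjusted p under 0.05 in both comparisons, 5 of 45 genes against 0.534% of all tested genes. PSMC1, PSMC2 and PSMC5 are ATPases of the base, PSMA5 is an alpha ring subunit and PSMD11 a lid subunit that stabilizes the assembled particle. For none of the 45 genes were the HC and LC cows of a treatment fully separated, while 0.00628% of all tested genes were fully separated and lower in CONHC and 0.0691% in GLYHC.

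The alpha ring of the 20S core had 7 tested genes, all lower in HC over all cows and 5 of them at an unadjusted p under 0.05. PSMA5 had the lowest fold change, -0.19 ± 0.056 (adjusted p = 0.104), just above the threshold. It lay between 795 and 979 (median 874) normalized read counts in CONHC, between 879.6 and 1057 (median 1016) in CONLC, between 736 and 1079 (median 838) in GLYHC and between 792 and 1178 (median 992) in GLYLC, with both HC medians below both LC medians. PSMA7 had the highest fold change of the ring, -0.09 ± 0.072 (adjusted p = 0.635). PSMA4 was the 1 gene of the 2 particles without a lower mean in CONHC. Its log2 fold change was 0.0090 ± 0.094 in CON cows and -0.29 ± 0.10 in GLY cows.

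The beta ring had 7 tested genes, all lower in HC and 4 of them at an unadjusted p under 0.05. The 3 proteolytic sites sit on PSMB5, PSMB6 (caspase-like activity) and PSMB7 (trypsin-like activity), and these had log2 fold changes of -0.18 ± 0.061, -0.19 ± 0.065 and -0.16 ± 0.067 over all cows, with adjusted p-values of 0.161, 0.176 and 0.255. PSMB6 lay between 1121 and 1625 (median 1412) normalized read counts in CONHC, between 1287 and 1680.0 (median 1588) in CONLC, between 1176 and 1646 (median 1341) in GLYHC and between 1187 and 2069.7 (median 1459.9) in GLYLC. The groups overlapped widely, and the lowest GLYLC cow lay below the median of both HC groups. PSMB2, a subunit without proteolytic site, had the highest fold change of the ring, -0.08 ± 0.063 (adjusted p = 0.637).

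In the 19S base, all 6 ATPase genes were lower in HC, 5 of them at an unadjusted p under 0.05, with a median log2 fold change of -0.16. PSMC3 was the exception in size, with -0.02 ± 0.056 (adjusted p = 0.917). It lay between 1557 and 2163 (median 1803) normalized read counts in CONHC, between 1679 and 2047 (median 1772) in CONLC, between 1562 and 2050.2 (median 1830.2) in GLYHC and between 1438 and 2148 (median 1843) in GLYLC, with group medians that differed less than the cows of any group. The other 3 base genes, PSMD1, PSMD2 and the ubiquitin receptor PSMD4, all reached an unadjusted p under 0.05. PSMD4 had -0.18 ± 0.056 (adjusted p = 0.136) and PSMD2 -0.14 ± 0.043 (adjusted p = 0.113).

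The lid had 8 genes, all lower in HC and 7 of them at an unadjusted p under 0.05, with a median log2 fold change of -0.17. PSMD14, the enzyme that cuts the ubiquitin chain from the substrate, had -0.22 ± 0.081 (adjusted p = 0.212), with the largest standard error of the lid. It lay between 417 and 605 (median 541) normalized read counts in the 16 HC cows and between 404 and 797 (median 573) in the 15 LC cows, and the LC cows held both the lowest and the highest value. PSMD7, its inactive partner, had -0.18 ± 0.054 (adjusted p = 0.123). PSMD13 was closest to 0 among the lid genes, with -0.05 ± 0.042 (adjusted p = 0.701).

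For each cow, the level of the 20S and 19S genes was summarized as the median of the 31 genes' log2 CPM after the mean over all cows had been subtracted from each gene. This level lay between -0.18 and 0.07 in CONHC with a median of -0.04, between -0.09 and 0.14 in CONLC with a median of 0.09, between -0.32 and 0.05 in GLYHC with a median of -0.08, and between -0.08 and 0.29 in GLYLC with a median of 0.06. It was below 0 in 11 of 16 HC cows and above 0 in 13 of 15 LC cows. The 2 LC cows below 0 were CONLC cow 169, which was the lowest CONLC cow for 19 of the 31 genes, and GLYLC cow 544, which was the lowest GLYLC cow for 17. GLYHC cow 32 was the lowest of its group for 20 genes and GLYLC cow 209 the highest of its group for 19.

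**Figure D3:**
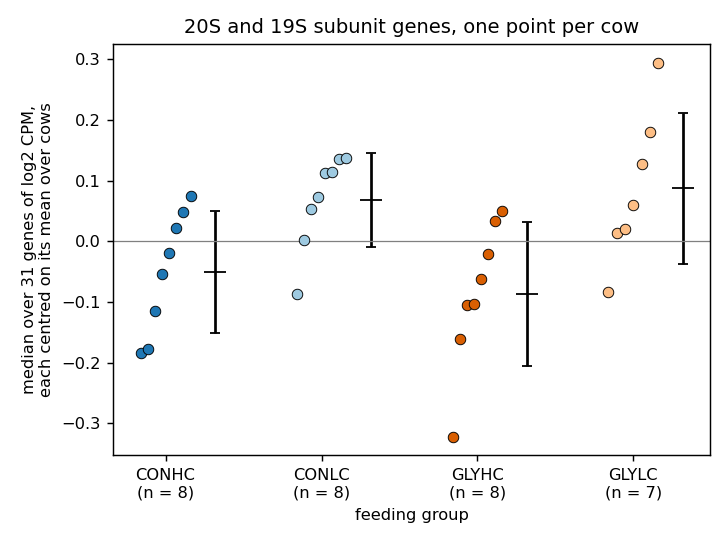
Level of the 31 20S and 19S subunit genes per cow (y axis, median over genes of centred log2 CPM) in the 4 feeding groups (x axis), with 1 point per cow and bars for mean ± SD. The lowest cow is in GLYHC at -0.32 and the highest in GLYLC at 0.29, and 13 of 15 LC cows lie above 0 compared with 5 of 16 HC cows.

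The chaperones that assemble the proteasome had fold changes on both sides of 0. Of the 7 genes, 5 were lower and 2 higher in HC over all cows, with a median log2 fold change of -0.06, and none reached an unadjusted p under 0.05. PSMG1, a chaperone of the alpha ring, had the lowest, -0.10 ± 0.061 (adjusted p = 0.467), and PSMG4, another 20S chaperone, the highest, 0.02 ± 0.13 (adjusted p = 0.970), with a sign that turned under 7 alternatives. PSMD5, a chaperone of the 19S base, had -0.19 ± 0.077 in GLY cows (unadjusted p = 0.0196, adjusted p = 0.296 in edgeR's test) and 0.02 ± 0.074 in CON cows. In edgeR's interaction test, the difference between the treatments was -0.21 ± 0.11 (adjusted p = 0.999).

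Among the activators and the inhibitor, 3 of 5 genes were higher and 2 lower in HC, with a median log2 fold change of 0.05 and none at an unadjusted p under 0.05. PSME1 lay between 1539 and 2251 (median 2021) normalized read counts in CONHC, between 1589.6 and 2092 (median 1916) in CONLC, between 1559.5 and 2955 (median 1918) in GLYHC and between 1663 and 2568 (median 1756) in GLYLC. The highest cow, GLYHC cow 117, stood above the rest of its group. The log2 fold change was 0.08 ± 0.076 (adjusted p = 0.714), and 0.03 without that cow. PSME2, its partner, had 0.06 ± 0.079 (adjusted p = 0.804). PSME4, which encodes a large nuclear activator, had the lowest value of these genes, -0.12 ± 0.066 (adjusted p = 0.421), and PSMF1, an inhibitor of the 20S core, had 0.05 ± 0.074 (adjusted p = 0.832). PSME3, the activator of nuclear proteasomes, had 0.06 ± 0.088 in CON cows and -0.19 ± 0.091 in GLY cows.

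PSMB10 encodes the beta subunit that replaces PSMB7 after stimulation by interferon. It lay between 172 and 332 (median 289.6) normalized read counts in CONHC, between 184 and 368 (median 226) in CONLC, between 165 and 699 (median 251) in GLYHC and between 124 and 310.1 (median 244) in GLYLC. The GLYHC maximum belonged to cow 117, and the other GLYHC cows lay between 165 and 368. The log2 fold change over all cows was 0.22 ± 0.17 (adjusted p = 0.608), and 0.08 without cow 117. PSMC3IP lay between 7.45 and 22.9 (median 16.8) normalized read counts in CONHC, between 6.55 and 27.2 (median 14.5) in CONLC, between 13.2 and 43.5 (median 18.7) in GLYHC and between 14.6 and 24.4 (median 17.5) in GLYLC, and its log2 fold change was 0.16 ± 0.19 (adjusted p = 0.775).

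The interferon-induced beta subunits PSMB8, PSMB9 and PSMB10 take the places of PSMB5, PSMB6 and PSMB7, so their log2 ratio of reads within a library compares both forms of a site across cows. The ratio of PSMB10 to PSMB7 lay between -3.25 and -2.24 in CONHC with a median of -2.78, between -3.48 and -2.42 in CONLC with a median of -3.20, between -3.24 and -1.48 in GLYHC with a median of -2.86, and between -3.93 and -2.54 in GLYLC with a median of -3.19. Both HC medians were above both LC medians, with overlapping ranges. The difference of HC over LC was 0.26 ± 0.17 in CON cows (p = 0.155 by an exact two-sided permutation test, adjusted p = 0.437 over the 12 ratio tests) and 0.46 ± 0.26 in GLY cows (exact permutation p = 0.0908, adjusted p = 0.437). For PSMB9 to PSMB6 the difference was 0.45 ± 0.21 in CON cows (exact permutation test, p = 0.0545, adjusted p = 0.437) and 0.50 ± 0.35 in GLY cows (exact permutation test, p = 0.184, adjusted p = 0.437). For PSMB8 to PSMB5 it was 0.21 ± 0.16 in CON cows (exact permutation test, p = 0.218, adjusted p = 0.437) and 0.52 ± 0.34 in GLY cows (exact permutation test, p = 0.150, adjusted p = 0.437). Thus none of the ratios passed the adjusted threshold. GLYHC cow 117 had the highest value of its group in all 3 ratios. Without it, a setting chosen after the data were seen, the differences in GLY cows were 0.28 ± 0.20 for PSMB10 to PSMB7, 0.22 ± 0.23 for PSMB9 to PSMB6 and 0.25 ± 0.22 for PSMB8 to PSMB5, with exact permutation p-values of 0.170, 0.345 and 0.282. Between GLY and CON cows at the same concentrate proportion, the 6 differences lay between -0.10 and 0.23, with exact permutation p-values of 0.587 or more. The 3 differences between GLYHC and CONHC were 0.23 for PSMB8 to PSMB5, 0.06 for PSMB9 to PSMB6 and 0.10 for PSMB10 to PSMB7. Without cow 117 they were -0.04, -0.22 and -0.08.

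**Figure D4:**
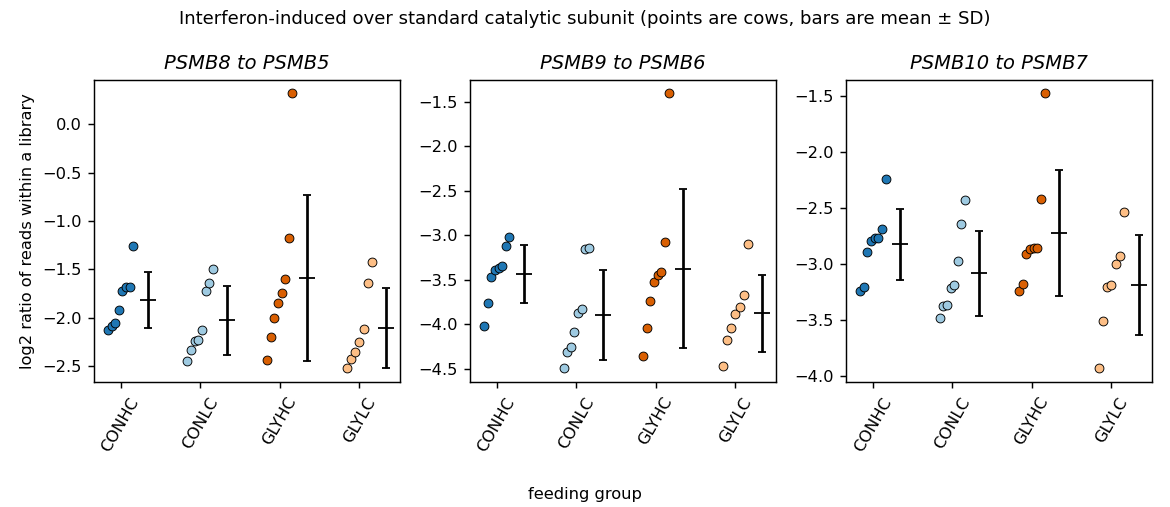
Log2 ratio of reads of the interferon-induced to the standard catalytic subunit within a library (y axis) in the 4 feeding groups (x axis), with 1 point per cow and bars for mean ± SD. The groups overlap in all 3 panels, and the highest GLYHC point of PSMB10 to PSMB7, at -1.48, is cow 117.

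Glyphosate residues were compared at each concentrate proportion. Between GLYHC and CONHC no gene was called in edgeR's quasi-likelihood test (0% of all tested genes were called), 0 genes reached an unadjusted p under 0.05 (beside 1.31% of all tested genes lower and 1.6% higher) and DESeq2 called 0 (0% of all tested genes). The mean was lower in GLYHC for 31 of the 45 genes and for 48.3% of all tested genes, with a median log2 fold change of -0.03 over the 45 genes. The smallest p belonged to PSMA4, with -0.18 ± 0.094 (unadjusted p = 0.0698 in edgeR's test), followed by PSMD5 with -0.14 ± 0.074 and PSMD12 with -0.11 ± 0.070. Between GLYLC and CONLC no gene was called either, while 0.0628% of all tested genes were called in either direction. PSMD6 was the 1 gene with an unadjusted p under 0.05, higher in GLYLC by 0.16 ± 0.076 (unadjusted p = 0.0446, adjusted p = 0.864 in edgeR's test), beside 3.71% of all tested genes higher and 1.94% lower at this threshold. The mean was lower in GLYLC for 10 of the 45 genes and for 50.6% of all tested genes. PSME3 had 0.17 ± 0.091 and PSMG2, a chaperone of the alpha ring, 0.15 ± 0.10. DESeq2 called 0 genes in this comparison, beside 0.0251% of all tested genes.

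Over all cows, with concentrate proportion as a covariate, GLY and CON cows differed by a median log2 fold change of -0.0003 over the 45 genes, and its sign turned under 22 alternatives. Of the 45 genes, 23 were lower (48.5% of all tested genes) and 22 higher. No gene was called (0% of all tested genes were called), 0 genes reached an unadjusted p under 0.05 (beside 1.45% of all tested genes lower and 2.48% higher) and DESeq2 called 0 (0.00628% of all tested genes). The smallest p-values belonged to PSMC3IP with 0.34 ± 0.19 (adjusted p = 0.9999), PSMC6 with 0.06 ± 0.051 and PSMD4 with -0.06 ± 0.056. Whether the concentrate difference itself differed between GLY and CON cows was tested as an interaction. No gene was called (0% of all tested genes were called, and DESeq2 called 0 of the 45 and 0.00628% of all tested genes), and PSMA4 with -0.30 ± 0.14 (unadjusted p = 0.0362, adjusted p = 0.999 in edgeR's test) and PSMD6 with -0.22 ± 0.11 (unadjusted p = 0.0495, adjusted p = 0.999) were the 2 genes below an unadjusted p of 0.05, beside 2.31% of all tested genes lower and 1.9% higher at this threshold. The interaction was negative for 33 of the 45 genes and for 48.3% of all tested genes.

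Cows of the same group varied together in these genes. Correlations are given over 31 cows on log2 CPM centred on the group mean, as a description, since all genes of a cow share its library, depth and RNA. Pairs of the 31 20S and 19S genes had a median Pearson's r of 0.49 (Spearman's rho 0.46), against -0.004 for pairs of all 11835 genes with a mean of at least 1 CPM. Within the beta ring the median r was 0.78, within the alpha ring 0.66, within the ATPases 0.39 and within the lid 0.34. Without cow 912 the median over the 31 genes was 0.50. The median r was thus higher within the rings of the 20S core than within the ATPases or the lid. The highest pair was PSME2 with PSME1 (r = 0.91, rho = 0.90), neighbours with 1 gene between them in the bovine RefSeq annotation, followed by the alpha subunits PSMA2 and PSMA3 (r = 0.90, rho = 0.87) and by PSMA2 with the lid enzyme PSMD14 (r = 0.89, rho = 0.87).

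Not all genes followed this pattern. The r of each gene with the mean of the 20S and 19S genes, itself left out, was between 0.13 for PSMD11 and 0.88 for PSMB3, with a median of 0.70. Of the 5 genes called between HC and LC cows, PSMC2 had an r of 0.70, PSMD1 of 0.62, PSMD12 of 0.58, PSMC6 of 0.53 and PSMD6 of 0.33. PSMD2, PSMD3 and PSMD13 were among the lower values with 0.25, 0.36 and 0.34. PSME4 went the other way, with an r of -0.31 with the mean and of -0.61 with PSMB6 and with PSMB10, and the lowest pair of all was PSMD13 with PSME3 (r = -0.68, rho = -0.63). PSMB10 had an r of 0.86 with PSMB8 (0.80 without cow 117), and PSME1 and PSME2 had 0.64 and 0.60 (0.41 and 0.44 without it). The median over the 31 genes was 0.19 (0.12 without cow 117), with a range over all cows from -0.38 for PSMD2 to 0.58 for PSMB2. Without cow 117, PSMD14 (0.50) and the assembly chaperone PSMG3 (0.48) lay above PSME1 and PSME2, so their r was not particular to these 2 activators.

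**Figure D5:**
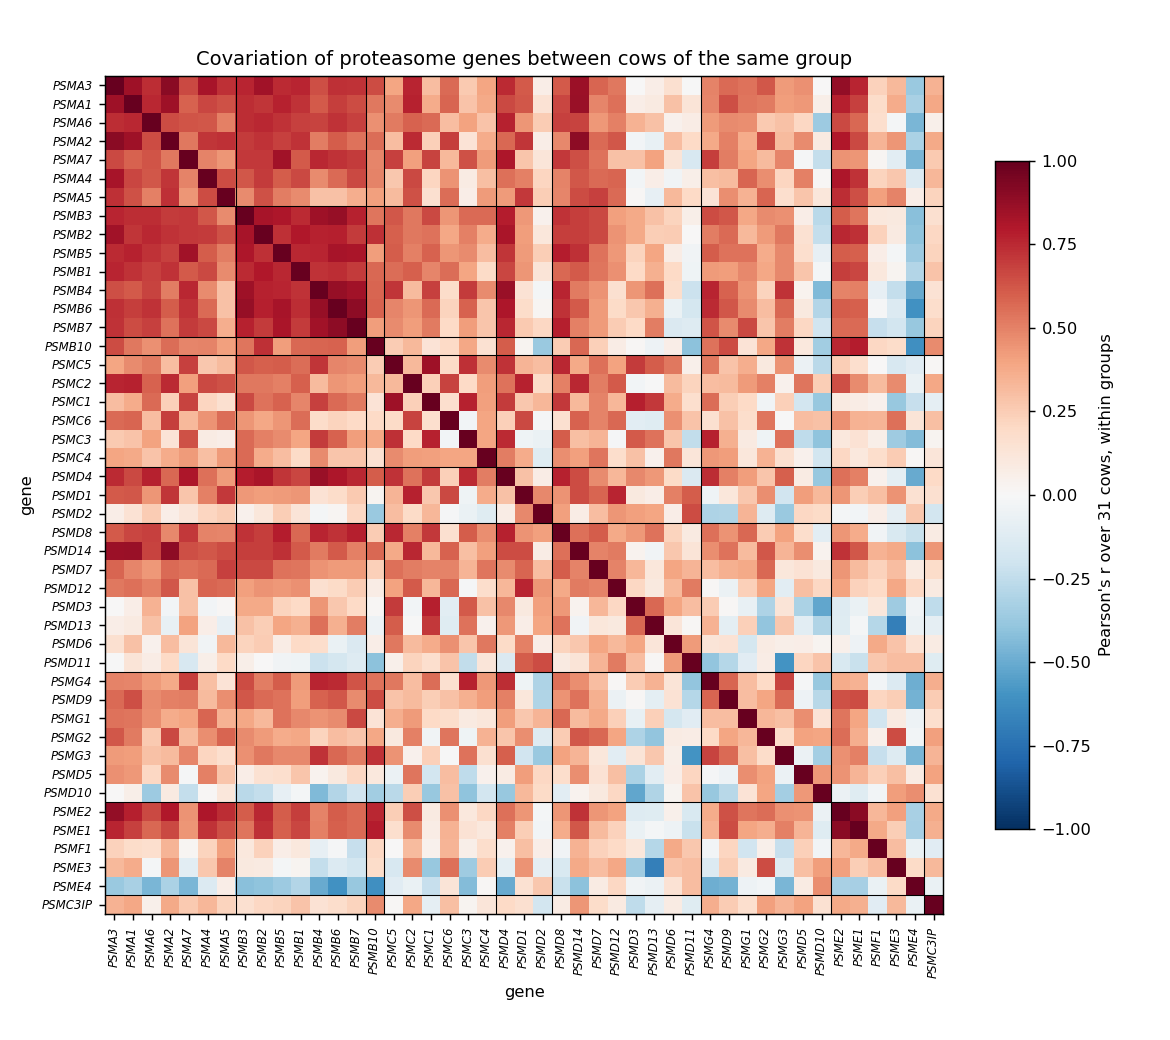
Pearson's r over 31 cows between the 45 tested proteasome genes (both axes, lines between roles) on log2 CPM centred on the group mean, from -1 (blue) to 1 (red). The block of the alpha and beta rings is the most evenly red, with a median r of 0.71 over its pairs, and PSME4 has negative values with most of them, down to -0.61 with PSMB6.

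The 10 genes outside the family most like the mean of the 20S and 19S genes across cows were NDUFB4 (r = 0.83), HINT1 (0.82), ATP5MD (0.80), EIF1AX (0.78), HSPE1 (0.78), EMC2 (0.77), NEDD8 (0.77), COPS5 (0.77), ATP5PO (0.76) and WDR55 (0.76). NDUFB4, ATP5MD and ATP5PO encode parts of the mitochondrial respiratory chain or ATP synthase, NEDD8 is a ubiquitin-like modifier and COPS5 the enzyme of the COP9 signalosome. Of the 100 genes with the highest r, 20 were proteasome genes. All 10 genes had a negative log2 fold change of HC over LC over all cows, from -0.25 for NDUFB4 to -0.03 for EIF1AX, as had 54% of all tested genes. They were picked for their likeness to the mean, so these counts are a description. NDUFB4, HSPE1, EMC2, WDR55, COPS5 and HINT1 reached an unadjusted p under 0.05 in edgeR's test, beside 7.81% of all tested genes lower at this threshold. None of the 10 genes was called, and NDUFB4 had the smallest adjusted p of them, 0.132. Lower values in HC were thus not particular to the proteasome genes.

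Between cows of a group most of the genes varied less than the median tested gene. The biological coefficient of variation, which is the spread between cows of a group beyond counting error, had a median of 12.9% over the 45 genes and 22.2% over all tested genes. The latter include genes with as few as 20 reads in total. Medians were 12.2% for associated factors outside the definition, 12.8% for ubiquitin and shuttle genes, 15.2% for regulators of proteasome transcription and 15.4% for cytosolic chaperones. Low spread was thus not particular to the proteasome genes. It was lowest for PSMD8 (9.68%), PSMD13 (9.84%) and PSMD2 (10.4%), and highest for PSMB10 (32.1%) and PSMC3IP (29.0%). The median standard error of the log2 fold change over the 31 20S and 19S genes was 0.056 in the comparison of all cows, and 0.079 in CON and 0.082 in GLY cows.

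Genes that work with the proteasome were compared between HC and LC cows over all cows. Of 13 genes of associated factors outside the definition, 9 were lower and 1 was called, TXNL1, a thioredoxin that binds the 19S particle, with -0.17 ± 0.047 (adjusted p = 0.0860), a call that was lost without any 1 of 17 cows. The deubiquitinase USP14 had -0.17 ± 0.057 (adjusted p = 0.158), POMP, which matures the 20S core, -0.09 ± 0.054 (adjusted p = 0.466) and the ubiquitin receptor ADRM1 -0.15 ± 0.080 (adjusted p = 0.398). None of 8 genes of the regulation of proteasome transcription was called and 1 was at an unadjusted p under 0.05. NFE2L1, the factor that induces proteasome genes when proteasomes are impaired, had -0.08 ± 0.047 (adjusted p = 0.438) and NFE2L2 0.04 ± 0.066 (adjusted p = 0.879). Of 11 genes of ubiquitin, its activation and shuttle receptors, 8 were lower, 1 reached an unadjusted p under 0.05 and none was called.

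Cytosolic chaperones stood in the same direction as the proteasome genes. This list was chosen with earlier results of these data known, so its counts are a description. All 15 listed genes were lower in HC, 14 at an unadjusted p under 0.05, beside 7.81% of all tested genes lower at this threshold. Of the 15 genes, 4 were called, beside 0.773% of all tested genes called lower: HSPA8 with -0.49 ± 0.11 (adjusted p = 0.0423), CCT8 with -0.26 ± 0.059 (adjusted p = 0.0423), CCT2 with -0.26 ± 0.071 (adjusted p = 0.0900) and TCP1 with -0.20 ± 0.047 (adjusted p = 0.0468). HSPA8 is the constitutive heat shock cognate, and the other three are subunits of the chaperonin that folds actin and tubulin. The CCT2 call was lost without any 1 of 16 cows, and the other calls held without each of the 31 cows. Across cows, centred on the group mean, the level of these chaperones and that of the 20S and 19S genes had an r of 0.54 (rho = 0.65, n = 31).

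Markers of some other cell types also moved with concentrate proportion. Mean scores in HC and LC cows were -0.02 and 0.02 for endothelial and -0.01 and 0.01 for bile duct markers. They were 0.06 and -0.07 for lymphocyte and -0.09 and 0.09 for red cell markers, less than the SD between cows. Of 8 hepatocyte markers, 2 were higher in HC at an unadjusted p under 0.05 in edgeR's test, 0 were lower at it and none was called. All 7 connective tissue markers were lower in HC at an unadjusted p under 0.05, beside 7.81% of all tested genes. Of these markers 1 was called, DCN with -0.50 ± 0.10 (adjusted p = 0.0275), beside 0.773% of all tested genes called lower. Without cow 103, 5 of the 7 reached an unadjusted p under 0.05 and DCN was at -0.46 (adjusted p = 0.0420). Without cow 912, 6 of the 7 connective tissue markers reached it and 2 were called. Their summed level was 145 to 325 CPM in HC and 178 to 2289 CPM in LC cows, with the highest value in cow 103 and 1019 CPM as the highest among the other LC cows, and none was at 0. Of 7 macrophage markers, 5 were higher in HC, 3 of them at an unadjusted p under 0.05, beside 5.88% of all tested genes higher. CD14 was lower at this threshold, with -0.18 ± 0.080 (unadjusted p = 0.0309 in edgeR's test), and MARCO was lower at -0.08. The 1 called marker was CD68, higher with 0.61 ± 0.17 (adjusted p = 0.0948). Summed levels of the macrophage markers were 549 to 1154 CPM in HC and 564 to 999 CPM in LC cows. The CD68 call was lost without any 1 of 22 cows, cows 103 and 912 among them. Of 6 intestinal markers, FABP2 (-9.14), MUC13 (-7.13), BCO1 (-6.84) and OLFM4 (-5.19) were called lower in HC. Their adjusted p-values in edgeR's test were 0.0275, 0.0307, 0.0451 and 0.0451. The intestinal score was 6.59 in cow 912 of GLYLC, against a median of -0.22 over all cows. In the fit with the connective tissue score as a covariate, the smallest adjusted p of the 45 genes was 0.180, and 0.0565% of all tested genes were called lower. Without cow 103 that fit also called 0 of them (smallest adjusted p = 0.198, median log2 fold change -0.14, 0.0504% of all tested genes called lower). With the macrophage score the smallest adjusted p was 0.133, and 0.113% of all tested genes were called lower. With log2 of total reads, 3 of the 45 genes were called lower (0.32% of all tested genes) and their median was -0.14. Across cows of a group, the level of the 20S and 19S genes had an r of -0.07 with the connective tissue score (-0.07 without cow 103), -0.18 with the macrophage score, -0.05 with the hepatocyte score and -0.01 with total reads.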

How the data were processed

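Total RNA of liver biopsies from 31 cows was sequenced from stranded mRNA libraries. Per the submitters' processing notes, the authors used FastQC, Trim Galore, HISAT2 2.1.0 and HTSeq 0.8.0 with the assembly UMD3.1 and deposited raw counts of reads per gene. Whether reads were counted by strand is not given in the sources used here. A deposited table of normalized values was not used.

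Differences were tested by edgeR 4.0.16 under R 4.3.3, using TMM library sizes and the quasi-likelihood F test, for 15916 genes whose reads reached 20 in total, with 4 groups in the model, and with additive models for HC against LC and GLY against CON over all cows. Calls required p under 0.05 and, after Benjamini-Hochberg adjustment over all tested genes, under 0.1. DESeq2 1.42.0 was an alternative. Normalized read counts are raw counts scaled by TMM library sizes. Log2 CPM used a prior count of 2 and log2 ratios a pseudocount of 0.5 reads. Standard errors were derived from the F statistic.

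The members and gene lists were chosen with earlier results of these data known. Values are given for called genes, for the 3 smallest p-values per comparison and for the highest and lowest fold change per role. They are also given for the members of the ratios, for genes of the other lists called between HC and LC over all cows and for the 10 most alike genes. Further members were named after their values were seen. Counting error was set by 11675775 to 36675542 reads per cow. As a check for duplicated libraries, the smallest chi-square per gene between cows of a group was 24.5 over 105 pairs. Cows of a group thus differed by more than counting error. Of the gene names, 47 of 47 matched RefSeq, and no sequences or coordinates of the build were at hand. The steps were tested on simulated counts. One further gene list is not reported here.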

Additional observations from a re-analysis of the deposited data

Results flagged for a closer look

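In 8 of 100 tests of a gene within a feeding group a single cow stood farther from the others than Dixon's 95% criterion allows. The tests covered only part of the 45 genes and shared cows, so this count cannot be set against the nominal 5%. Cow 117 of GLYHC had the highest PSMB10 value, 699 normalized read counts against 165 to 368 in the other cows, and the highest PSME1 value, 2955 against 1560 to 2192. Cow 209 of GLYLC had 2568 for PSME1 against 1663 to 1998. Cow 169 of CONLC had the lowest value of its group for PSMB2 (1229 against 1452 to 1651), PSMD1 (1852 against 2187 to 2336) and PSMD12 (709 against 817 to 877). Cow 912 of GLYLC had 843 for PSMD6 against 534 to 643, and cow 152 of GLYHC had 43.5 for PSMC3IP against 13.2 to 26.0.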

How the results depend on the processing

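Alternatives covered normalization (RLE, upper quartile), the filter on low counts (none, edgeR's filterByExpr), a robust fit, an adjusted p under 0.05, a fit on only the 2 compared groups, DESeq2 on all cows and on only the 2 compared groups, and each of the 31 cows left out. Covariates for total reads, connective tissue markers (with and without cow 103) and macrophage markers, and ratios without cow 117, were added after the data were seen. No called gene and no median of HC against LC turned its sign. Values that were not called did. PSMG4 (HC against LC) went from 0.02 to -0.026 with the macrophage score and lay between -0.032 and 0.071 with 1 cow left out. The median over the 45 genes for GLY against CON was 0.0013 under RLE and 0.00084 by DESeq2, and -0.017 to 0.017 with 1 cow left out. That of GLYHC against CONHC was -0.052 to 0.0073 and that of GLYLC against CONLC -0.0038 to 0.055 with 1 cow left out. For GLYHC against CONHC, medians over cows in place of means turned PSMB9 to PSMB6 to -0.11 and PSMB10 to PSMB7 to -0.079, and for GLYLC against CONLC they turned PSMB10 to PSMB7 to 0.011. Without cow 117 or cow 912, the GLYHC against CONHC ratios ran from -0.041 to 0.23 for PSMB8 to PSMB5, from -0.22 to 0.065 for PSMB9 to PSMB6 and from -0.079 to 0.10 for PSMB10 to PSMB7, and the GLYLC against CONLC ratio of PSMB9 to PSMB6 from -0.12 to 0.015. Over all cows, HC against LC gave 5 called genes, and 1 at an adjusted p under 0.05, 14 by DESeq2, 3 with log2 total reads, 0 with the connective tissue score and 0 with the macrophage score as covariate. Leaving out 1 cow gave 2 to 12. In GLY cows, 1 gene was called, and 0 with the robust fit (smallest adjusted p = 0.103), 0 at an adjusted p under 0.05, 0 on only the 2 groups, 4 by DESeq2 on all cows and 0 to 4 with 1 cow left out. In CON cows, 0 genes were called and 1 by DESeq2 on only the 2 groups, PSMD2 (adjusted p = 0.0611). Between GLY and CON cows and for the interaction, 0 were called under all alternatives run. The median log2 fold change over the 45 genes lay between -0.16 and -0.11 for HC against LC over all alternatives. No paired analysis was possible because the groups share no replicate numbers and each cow belongs to 1 group. The cause of these changes was not tested.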
